A study of Mus musculus with 8 samples.

Results

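The mouse amylase cluster is a row of genes on chromosome 3 that code for alpha-amylases, the enzymes that cut starch into short sugars. Here it was taken as 7 protein-coding genes by symbol, *Amy2b*, *Amy2a5*, *Amy2a4*, *Amy2a3*, *Amy2a2*, *Amy2a1* and *Amy1*, of the 21887 nuclear protein-coding genes in the RefSeq table of GRCm38.p6. The cluster was selected on the listed peaks, since a peak had been seen over part of it in all 8 lists. Whether its genes carry peaks is therefore a description and was given no test. *Amy1* is known as the amylase of salivary gland and liver and the *Amy2* genes as those of the exocrine pancreas, and the *Amy2a* genes are near-copies of one another that arose by duplication.

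The libraries came from 1 line of brown preadipocytes (BAC), made from the interscapular fat pad of *Cars2* flox/flox newborns and kept growing by SV40 large T antigen, so that every group shares the floxed allele and the T antigen. The control cells (Vec, BAC-V, genotype label WT) carried the empty retroviral vector and the knockout cells (Cre, BAC-Cre, genotype label CarS2-KO) carried Cre recombinase, which deletes *Cars2*, the mitochondrial cysteinyl-tRNA synthetase gene. All groups received the same differentiation treatment, an induction with T3 (1 nM), insulin (20 nM), IBMX (0.5 mM), dexamethasone and indomethacin and then T3 and insulin alone. Cut & Tag was then run, in which a transposase tethered to an antibody cuts and tags the chromatin around the bound protein. The antibodies recognised EBF2, a transcription factor of the brown fat lineage, or H3K27ac, an acetylation of histone H3 found at active promoters and enhancers, with 2 libraries in each of the 4 groups.

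The 8 peak lists held between 533 and 902 peaks each, and peaks over 10 kb made up 98.8% to 99.0% of the length covered in every list. The number of reads is unknown, but the background coverage of each list was recovered from the deposited folds and p-values. It was 1.39 in EBF2 Vec replicate 2 and between 7.38 and 8.76 in the other 3 EBF2 libraries. With H3K27ac, where the values are approximate, it was 18.8 and 9.41 in Vec replicates 1 and 2 and 9.66 and 9.91 in Cre. EBF2 Vec replicate 2 thus stood apart among the EBF2 libraries, and H3K27ac Vec replicate 1 was the highest of the H3K27ac libraries. In EBF2 Cre replicate 1 the names of the peaks contain Cars2AKO, whereas the labels give BAC-Cre. The EBF2 comparisons of length, edges and coverage are given with and without EBF2 Vec replicate 2 and EBF2 Cre replicate 1. Of 10 marker genes of brown adipocytes, *Ucp1* and *Adipoq* among them, 0 had a listed peak, inside the gene or up to 10 kb away, in any list, so the labelled cell type could not be read from the lists. Counts were also 0 of 8 for pancreatic acinar and 0 of 4 for salivary acinar markers. Over all protein-coding genes 8.89% had such a peak in at least 1 list, so counts of 0 in lists this short are near the background.

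All 7 genes lie on the minus strand of chromosome 3, between positions 113147656 and 113577750 of GRCm38 (mm10). From the lowest coordinate up, *Amy2b* (gene ID 545562) spans 113147656 to 113156727, *Amy2a5* (gene ID 109959) spans 113249178 to 113258699 and *Amy2a4* (gene ID 100043684) spans 113279837 to 113291449. *Amy2a3* (gene ID 100043686) follows from 113312449 to 113324052 and *Amy2a2* (gene ID 100043688) from 113345049 to 113356658. *Amy2a1* (gene ID 100043207), annotated only 4334 bp long, spans 113528095 to 113532428, and *Amy1* (gene ID 11722) spans 113555952 to 113577750. *Amy2a5*, *Amy2a4*, *Amy2a3* and *Amy2a2* are thus evenly spaced, with 32.8, 32.6 and 32.6 kb from the 5′ end of one to that of the next. *Amy2a2* and *Amy2a1* are 176 kb apart by the same measure. The pseudogene *Amy2-ps1* (gene ID 668723, 113182234 to 113206694) is the only other annotated gene from 10 kb before the first member to 10 kb after the last.

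The RefSeq promoter table held a window of 250 bases before to 50 after an annotated start for all 7 genes, with a second window for *Amy1*. The windows of *Amy2a2*, *Amy2a3* and *Amy2a4* were the same 300 letters. The *Amy2a5* window matched them without a mismatch over 162 letters but lay 138 bases further along the gene, since its annotated start is further downstream. *Amy2a1* aligned to *Amy2a4* over 298 letters with 7 mismatches and to *Amy2a5* over 162 letters with 1. *Amy2b* had 76.0% identity to *Amy2a5* over 287 aligned letters, and the *Amy1* windows aligned to the *Amy2a* windows over at most 23 letters. The 250 upstream bases are shown because they set the copies that lay under a peak beside those that did not. They are given 5′ to 3′ on the minus strand of GRCm38.p6, at chr3:113356659-113356908 for *Amy2a2* (the letters of *Amy2a3* at chr3:113324053-113324302 and *Amy2a4* at chr3:113291450-113291699 are the same), chr3:113258700-113258949 for *Amy2a5*, chr3:113532429-113532678 for *Amy2a1*, chr3:113156728-113156977 for *Amy2b* and chr3:113577751-113578000 for the outer start of *Amy1*. Capitals in the *Amy2a* genes mark the 112 bases that are identical in all 5 copies, and capitals in *Amy2b* mark its longest run shared with *Amy2a5*, 11 bases. That run begins at base 165 of the *Amy2b* letters but lies within the first 112 of *Amy2a5*, so it is not a match at the same place.
Amy2a2: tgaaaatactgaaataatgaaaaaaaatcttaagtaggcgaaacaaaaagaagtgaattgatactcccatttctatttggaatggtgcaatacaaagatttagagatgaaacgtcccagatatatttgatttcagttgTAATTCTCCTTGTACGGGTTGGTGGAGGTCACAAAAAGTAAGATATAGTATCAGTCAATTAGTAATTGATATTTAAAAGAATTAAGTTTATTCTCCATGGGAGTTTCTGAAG
Amy2a5: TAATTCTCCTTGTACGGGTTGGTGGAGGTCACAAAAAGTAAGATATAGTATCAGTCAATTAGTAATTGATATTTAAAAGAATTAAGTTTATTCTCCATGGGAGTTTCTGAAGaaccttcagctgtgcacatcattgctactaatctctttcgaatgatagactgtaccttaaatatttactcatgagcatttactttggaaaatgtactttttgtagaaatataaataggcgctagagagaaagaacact
Amy2a1: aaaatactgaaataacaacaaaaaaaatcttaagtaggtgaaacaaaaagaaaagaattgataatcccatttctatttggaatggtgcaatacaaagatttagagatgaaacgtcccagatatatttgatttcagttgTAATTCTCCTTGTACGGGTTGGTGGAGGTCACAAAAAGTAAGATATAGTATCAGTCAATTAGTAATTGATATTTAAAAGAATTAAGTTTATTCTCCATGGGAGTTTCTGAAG
Amy2b: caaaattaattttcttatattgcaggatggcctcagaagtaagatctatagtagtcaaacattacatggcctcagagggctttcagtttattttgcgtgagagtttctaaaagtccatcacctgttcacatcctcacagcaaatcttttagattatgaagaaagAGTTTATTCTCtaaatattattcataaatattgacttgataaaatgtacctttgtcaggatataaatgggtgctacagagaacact
Amy1: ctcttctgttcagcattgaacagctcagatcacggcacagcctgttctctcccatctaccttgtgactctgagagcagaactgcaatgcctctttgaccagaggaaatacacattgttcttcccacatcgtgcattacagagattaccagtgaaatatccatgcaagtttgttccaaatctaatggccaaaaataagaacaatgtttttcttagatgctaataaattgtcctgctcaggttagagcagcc
The 112-base stretch was under a peak in all 8 lists at *Amy2a5*, *Amy2a4*, *Amy2a3* and *Amy2a2*, and in 0 lists at *Amy2a1*, where its letters are the same.

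The EBF motif, a TATA box and an E-box were searched on both strands of the 300-base windows. The EBF motif, TCCC and GGGA with any 2 bases between, which reads the same on either strand, was in 0 of the 8 amylase windows and in 0.904% of all 32851 windows of the table. The TATA box TATAAA began 30 bases before the annotated start in *Amy2a5* and 26 bases before it in *Amy2b*, and was also in the inner window of *Amy1*, against 13.6% of all windows. The windows of the other *Amy2a* genes align only to the first 162 letters of the *Amy2a5* window, which end before its TATA box. The matching place in those genes was thus outside the windows and was not searched. The E-box CAGCTG was in 1 place in each of the 5 *Amy2a* windows and in none of the *Amy2b* and *Amy1* windows, against 16.3% of all windows. The motifs do not overlap one another here, and a match or its absence says only which letters the window holds.

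Each of the 8 lists held exactly 1 peak in the cluster, a single wide block over *Amy2a4*, *Amy2a3* and *Amy2a2* that began inside *Amy2a5*. With EBF2 it ran from 113251822 to 113375436 in Vec replicate 1 and from 113258256 to 113374025 in Vec replicate 2. In Cre replicate 1 it ran from 113253393 to 113374850 and in Cre replicate 2 from 113253061 to 113376687. Both EBF2 Cre blocks thus began between the 2 EBF2 Vec blocks, and the beginning was latest in Vec replicate 2. With H3K27ac the block ran from 113255576 to 113374108 in Vec replicate 1 and from 113254606 to 113371245 in Vec replicate 2. It ran from 113257215 to 113376165 in Cre replicate 1 and from 113257027 to 113374437 in Cre replicate 2. A stretch of 113 kb, from 113258256 to 113371245, was covered in all 8 lists, and made up 90.5% of the 125 kb covered in any of them. The starts were spread over 6.43 kb and the ends over 5.44 kb. For comparison, in the 33 autosomal regions over 10 kb with exactly 1 peak in each list, the amylase block included, the median shared part was 71.8%, the median spread of starts 10.6 kb and that of ends 8.80 kb, and 5 of the 33 had a larger shared part than the amylase block.

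**Figure D1:**
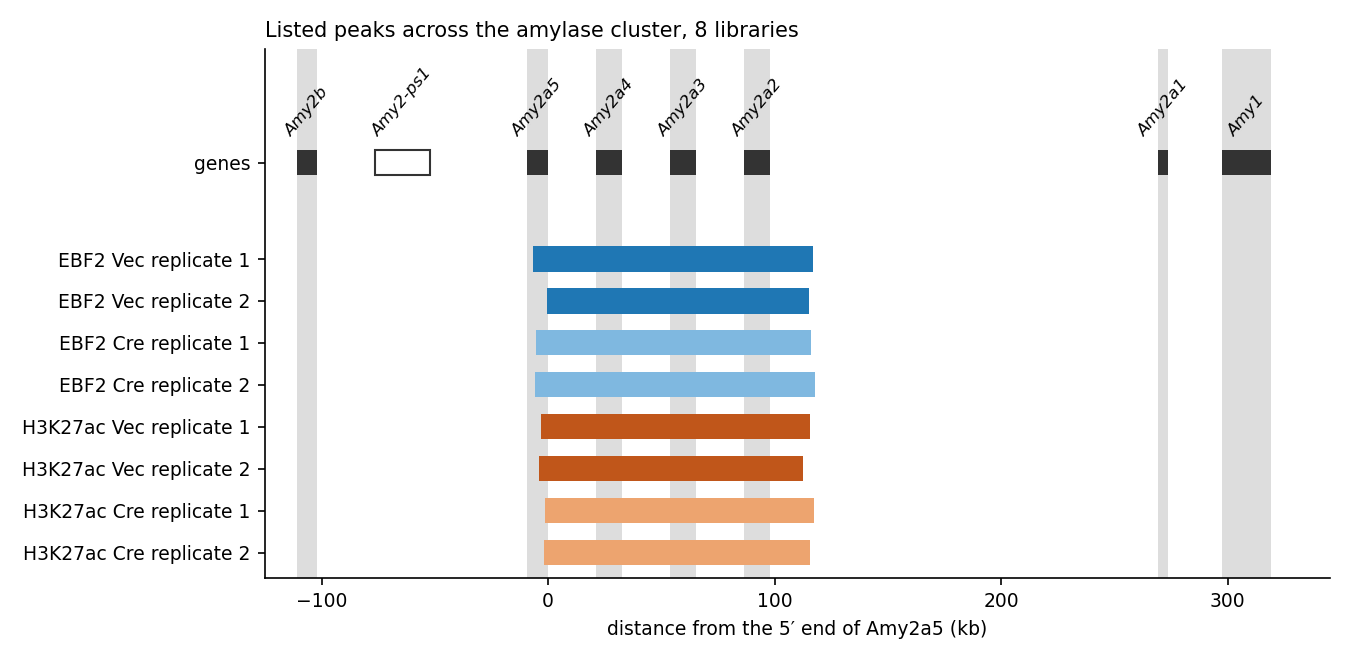
Listed peaks (bars, 1 row per library) and annotated genes (black boxes, the pseudogene open; grey bands mark the 7 members) along chromosome 3, as distance in kb from the 5′ end of *Amy2a5*. In every library a single bar begins inside *Amy2a5*, spans *Amy2a4*, *Amy2a3* and *Amy2a2* and stops 14.6 to 20.0 kb beyond *Amy2a2*, with no bar at *Amy2b*, *Amy2-ps1*, *Amy2a1* or *Amy1*.

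By the rule of a peak inside the gene or up to 10 kb away, 4 of the 7 members had a peak in every list, the same 4 genes with both antibodies and in both cell types. Under the same rule 5.13% and 3.85% of all protein-coding genes had a peak in EBF2 Vec replicates 1 and 2 and 5.17% and 4.95% in EBF2 Cre replicates 1 and 2. The shares were 6.93% and 5.6% in H3K27ac Vec and 5.8% and 7.2% in H3K27ac Cre. In all 8 lists it was 3.6% of all genes, 2.87% of autosomal genes and 2.44% of the genes of chromosome 3. Since the cluster was picked for its peaks, nothing is read from this difference. The 10 kb limit did not decide which members counted: the 4 genes overlapped the peak itself, and the nearest member outside, *Amy2b*, was 95.1 to 102 kb from it.

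*Amy2a4*, *Amy2a3* and *Amy2a2* were covered over 100% of their length in all 8 lists. *Amy2a5* was the one gene where the lists differed, since the first edge of the block lay within it, and the covered part was its 5′ part. With EBF2, 72.2% of *Amy2a5* was covered in Vec replicate 1, 4.66% in Vec replicate 2, 55.7% in Cre replicate 1 and 59.2% in Cre replicate 2. With H3K27ac, 32.8% and 43.0% were covered in Vec and 15.6% and 17.6% in Cre. Less of *Amy2a5* was covered in both H3K27ac Cre libraries than in both H3K27ac Vec libraries. This is the shift of the start of the block described below, not a separate result. How often H3K27ac blocks elsewhere differed in this way at the start alone was not counted. The EBF2 Cre libraries, by contrast, lay between the EBF2 Vec libraries. This contrast rested on EBF2 Vec replicate 2, since both EBF2 Cre libraries lay below Vec replicate 1, as with H3K27ac. Without Cre replicate 1, the other Cre library still lay between the Vec libraries. *Amy2b*, *Amy2a1* and *Amy1* had 0% of their length covered in every list. Over the 5 *Amy2a* copies together, the mean share covered was 67.5% ± 4.79 (SD over 8 lists). This mean mixes copies at 100% with *Amy2a1* at 0% and varies only through *Amy2a5*. Over *Amy1* and *Amy2b* the mean share was 0%. *Amy2a1* falls with the latter pair by its peaks, although its promoter letters group it with the other copies. A list holds only peaks above the threshold of the caller, with a smallest fold of 1.26 to 1.45 in the H3K27ac lists and of 1.48 to 1.71 in the EBF2 lists other than Vec replicate 2, where it was 1.997. Binding or acetylation below that level at *Amy1*, *Amy2b* or *Amy2a1* is not seen, and how reads that match several copies were placed is not given in the sources used here, so whether the covered copies had reads of their own is not known.

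**Figure D2:**
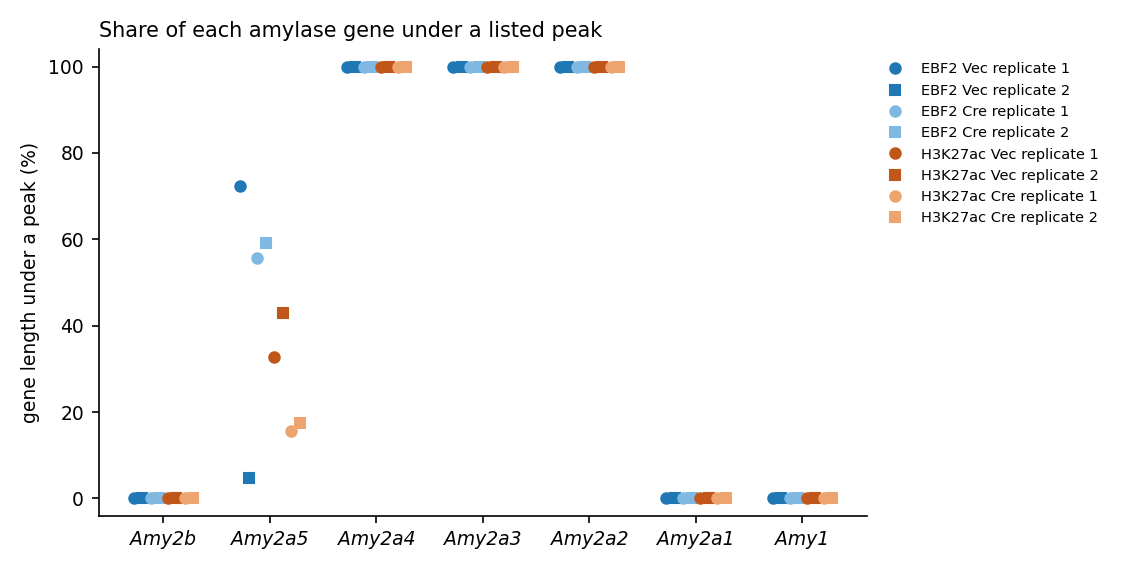
Percent of the length of each amylase gene under a listed peak, with genes in order of their position and 1 point per library (circles replicate 1, squares replicate 2). Points sit at 100% for *Amy2a4*, *Amy2a3* and *Amy2a2* and at 0% for *Amy2b*, *Amy2a1* and *Amy1*, and spread from 4.66% to 72.2% for *Amy2a5*.

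To ask whether loss of *Cars2* changed the block, its covered length was compared between Vec and Cre by an exact permutation test, two-sided, in which 2 libraries against 2 give no p below 0.333. With EBF2 the Vec blocks measured 120 kb ± 5.55 and the Cre blocks 123 kb ± 1.53 (SD, n = 2 each), and the difference of 2.85 kb did not exceed the spread between Vec replicates (exact permutation test, two-sided, p = 0.667). Its direction rested on 1 library: without EBF2 Vec replicate 2, Cre was shorter, with a difference of -1.07 kb, and without EBF2 Cre replicate 1 the difference was 3.93 kb. Among the 35 autosomal regions over 10 kb with 1 peak in each EBF2 list, 40.0% were wider in both Cre than in both Vec libraries and 2.86% the reverse, and the amylase block was neither. Without Vec replicate 2 the shares were 42.9% and 25.7%, and the block was again neither. Without Cre replicate 1 they were 62.9% and 2.86%, and the block was among the former, as the block of Cre replicate 2 measured 123627 bp and that of Vec replicate 1 123615 bp. Groups of 2 libraries and 1 separate more easily than 2 against 2, so these shares cannot be set against those with all libraries. With H3K27ac the Vec blocks measured 118 kb ± 1.34 and the Cre blocks 118 kb ± 1.09 (SD, n = 2 each), which differed by 0.59 kb (exact permutation test, two-sided, p = 0.667). Here 15.1% of the 106 autosomal regions over 10 kb with 1 peak in each H3K27ac list were wider in both Cre libraries and 13.2% in both Vec libraries, and again the amylase block was neither. The difference was within the spread of replicates, and it was -0.35 kb without Vec replicate 2 and -0.18 kb without Cre replicate 1.

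The edges of the H3K27ac block were shifted in the same direction in both Cre libraries. Its end lay 17.5 and 14.6 kb beyond the 5′ end of *Amy2a2* in Vec replicates 1 and 2, and 19.5 and 17.8 kb beyond it in Cre replicates 1 and 2. The mean start was 2.03 kb and the mean end 2.62 kb further toward *Amy1* in the knockout (exact permutation test, two-sided, p = 0.333 for each edge, the smallest this design gives). Vec and Cre did not overlap at either edge, and such a shift of both edges toward higher coordinates was found in 3.77% of the same 106 regions, and the opposite shift in 0.0%. The amylase block is 1 of the 4 regions in this count. The shift of the end was 1.19 kb without Vec replicate 2 and 4.06 kb without Vec replicate 1, each over 1.5 times from the value with all libraries, and it was 1.76 kb without Cre replicate 1. The shift of the start was 2.515 kb without Vec replicate 1, the H3K27ac list of highest background, and 1.545 kb without Vec replicate 2. With EBF2 the libraries overlapped at both edges, with a Cre minus Vec difference of -1.81 kb at the start and 1.04 kb at the end (exact permutation test, two-sided, p = 1 and 0.667). At the start the overlap and the direction rested on Vec replicate 2. Without it both EBF2 Cre blocks began further toward *Amy1* than that of Vec replicate 1, by a mean of 1.405 kb, the same direction as with H3K27ac, and such a start was found in 48.6% of the 35 EBF2 regions (exact permutation test, two-sided, p = 0.333, the smallest for 2 libraries against 1). The difference at the end was then 0.33 kb. The 48.6% comes from 2 libraries against 1 and from the start alone, so it cannot be set against the 3.77% above. Without Cre replicate 1 the differences were -1.98 kb at the start and 1.96 kb at the end, and without Vec replicate 1 and Cre replicate 2 in turn they were -5.03 and -1.65 kb at the start and 1.74 and 0.12 kb at the end.

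**Figure D3:**
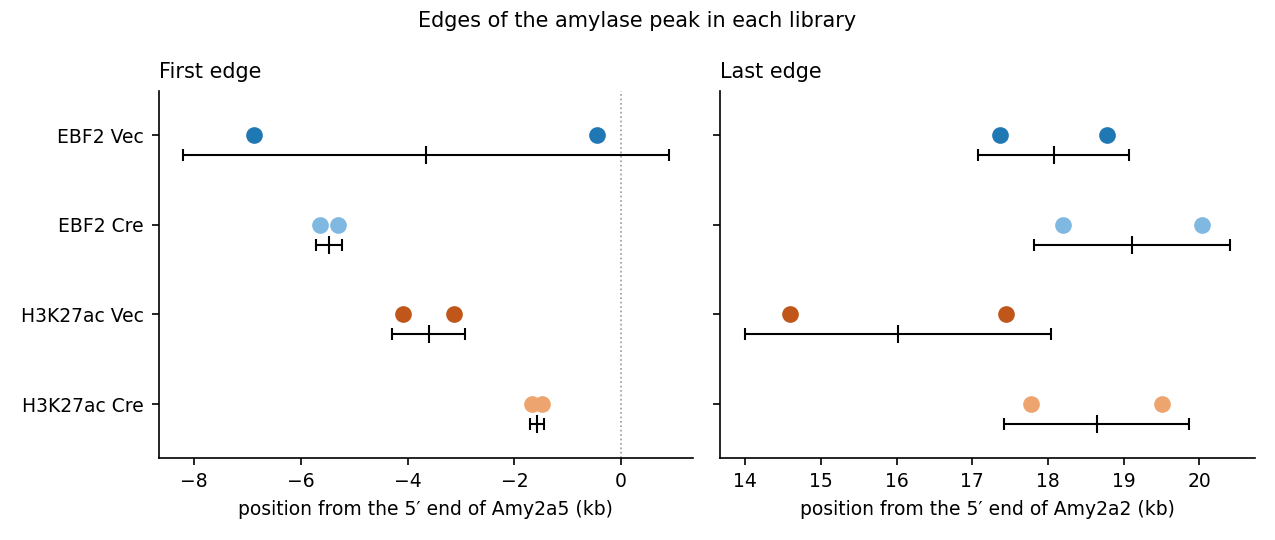
Position of the first edge (left, kb from the 5′ end of *Amy2a5*, negative values inside the gene) and the last edge (right, kb from the 5′ end of *Amy2a2*) of the amylase peak. Points are libraries and black bars are mean ± SD of the 2 libraries of a group. The H3K27ac Cre points lie to the right of the H3K27ac Vec points at both edges, and the EBF2 Vec points are far apart at the first edge.

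The H3K27ac block was shorter than the EBF2 block, at 118 kb ± 1.05 against 121 kb ± 3.71 (SD, n = 4 each), but the 2 antibodies overlapped and the difference of -3.23 kb did not pass the threshold of 0.05 (exact permutation test, two-sided, p = 0.171). It was -2.11 kb within Vec cells and -4.36 kb within Cre cells. This comparison too depended on EBF2 Vec replicate 2: without it the difference was -5.02 kb and all H3K27ac blocks were shorter than all EBF2 blocks (exact permutation test, two-sided, p = 0.0286). That is the smallest p such a comparison can give, and no other omission of a library passed 0.05. With all libraries and labels permuted within Vec and within Cre cells, p was 0.222 (exact permutation test, two-sided). Without EBF2 Cre replicate 1 it was -3.12 kb (exact permutation test, two-sided, p = 0.286). The EBF2 lists have the layout of narrow peaks and the H3K27ac lists that of broad peaks, so antibody and calling mode cannot be told apart.

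Within its own list the amylase block ranked high by the deposited fold, a ratio of coverage to the background of the caller. The EBF2 fold was 18.0 in Vec replicate 1, 12.6 in Vec replicate 2, 20.4 in Cre replicate 1 and 16.3 in Cre replicate 2, above 91.7% to 95.7% of the peaks of the same list. The H3K27ac fold, a mean over the block, was 9.44 and 6.68 in Vec and 9.07 and 8.00 in Cre, above 89.3% to 95.5% of the peaks of its list. Among peaks over 10 kb alone, the amylase block was above 80.5% to 89.8%. It was not among the widest, ranking from place 133 to place 156 by width in the 8 lists. The −log10 q-value was between 26.4 in EBF2 Vec replicate 2 and 178 in EBF2 Cre replicate 1.

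The caller adds 1 to coverage and background before it takes the fold, which lowers the fold of a shallow library. The coverage at the EBF2 summit was therefore solved from the fold and p-value of the peak, and came out within 0.001 of a whole number in all 4 EBF2 libraries. It was 150 in Vec replicate 1, 29 in Vec replicate 2, 188 in Cre replicate 1 and 179 in Cre replicate 2. Divided by the background of its list, the coverage was 20.3 (95% exact Poisson interval 17.2 to 23.9) and 20.9 (14.0 to 30.0) in Vec and 22.7 (19.6 to 26.2) and 20.4 (17.6 to 23.7) in Cre, with intervals that cover counting error only. On this scale EBF2 Vec replicate 2 no longer stood below the others. The summit is the highest point of a wide block, and picking it can raise the ratio most in the library of lowest background. The intervals do not allow for this, and its size in EBF2 Vec replicate 2 was not tested. The Vec mean was 20.6 ± 0.404 and the Cre mean 21.6 ± 1.64 (SD, n = 2 each), a difference of 0.97 that was within the spread of the Cre libraries (exact permutation test, two-sided, p = 0.667). Without EBF2 Cre replicate 1 the difference was -0.19, and without EBF2 Vec replicate 2 it was 1.25. With the same formula the H3K27ac values, approximate because they come from means over the block, were 10.5 and 7.91 in Vec and 10.4 and 9.16 in Cre, again with overlapping groups.

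**Figure D4:**
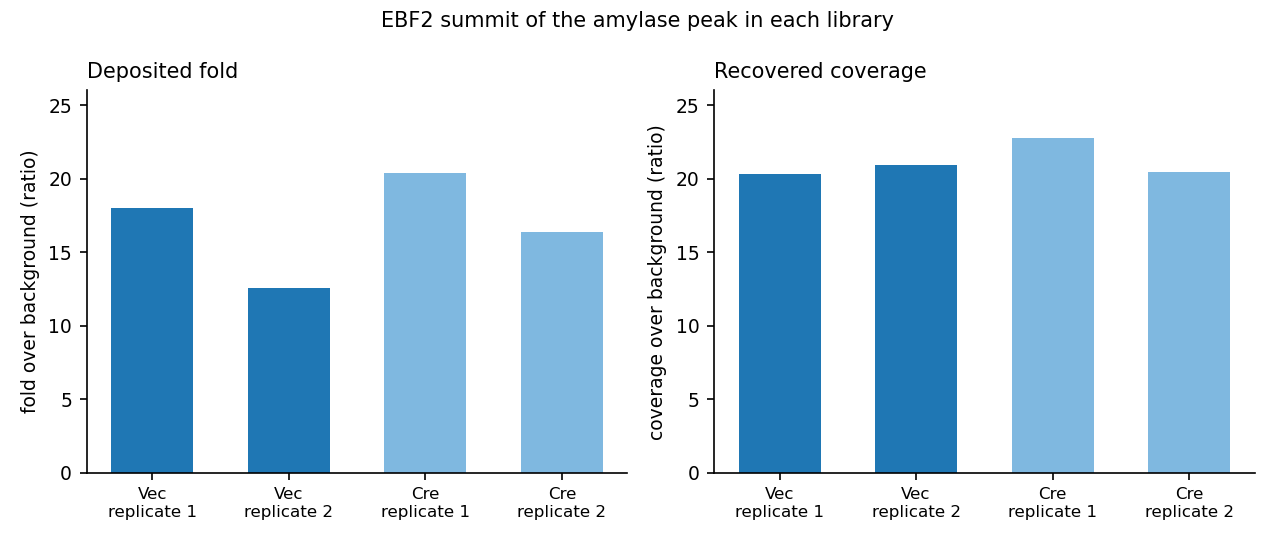
EBF2 summit of the amylase peak, 1 bar per library: the deposited fold (left) and the recovered coverage divided by the background coverage of the list (right), both ratios. The folds run from 12.6 to 20.4 and the coverage ratios from 20.3 to 22.7.

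The EBF2 summit lay at 3 places of the repeat in the 4 libraries. It was 5.56 kb upstream of the 5′ end of *Amy2a4* in Vec replicate 1, at position 113297008, and inside *Amy2a3* at 113320992 in Vec replicate 2. In Cre replicate 1 it was inside *Amy2a3* at 113313743 and in Cre replicate 2 inside *Amy2a4* at 113288312. The summits of Vec replicate 2 and Cre replicate 2 fell in 2 copies of the gene at nearly the same place, at -3.06 and -3.14 kb from the 5′ end (negative values inside the gene). None of the 4 summits lay in a promoter window, and they gave no point common to all 4 libraries.

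Around the cluster the lists held few peaks. The EBF2 lists held 0 peaks on chromosome 3 beyond the amylase block, and the nearest EBF2 peak on the other side was 10.4 to 14.7 Mb away. The H3K27ac lists held 5 and 1 peaks beyond the block in Vec replicates 1 and 2 and 1 and 5 in Cre replicates 1 and 2. Their nearest peak was 0.255 to 2.64 Mb beyond the block and 4.81 to 14.7 Mb away on the other side. *Ntng1*, a netrin-like guidance gene, and *Prmt6*, an arginine methyltransferase, are the nearest 2 protein-coding genes before the cluster, and neither had a peak within 10 kb in any list. The nearest 2 after it are *Rnpc3*, a protein of the minor spliceosome, and *Col11a1*, a fibrillar collagen. *Rnpc3* (gene ID 67225) had a peak in 1 list, H3K27ac Cre replicate 2, of 948 bp from 113629834 to 113630781 with a fold of 1.82. It lay across the highest coordinate of the gene, 113630149. *Col11a1* had none in any list. The listed peak nearest to the cluster was thus not shared between replicates.

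Other genes of digestion had no listed peak. Of 28 pancreatic digestive enzyme genes found in the gene table, the lipase *Pnlip*, the carboxypeptidase *Cpa1* and the elastase *Cela1* among them, 0 had a peak by the same rule in any list. Of 12 genes of starch and glycogen breakdown, such as the gut glucosidases *Mgam* and *Sis*, 0 had one. At the 8.89% of all genes with a peak in at least 1 list, these counts are few genes away from the background and are not read as a feature of the lists. Other clusters of related genes gave different counts under the same rule: 15 of 22 *Mup* genes (major urinary proteins, chromosome 4), 0 of 9 *Ugt1a* genes (glucuronosyltransferases, chromosome 1) and 2 of 9 *Cyp3a* genes (drug-metabolising cytochromes, chromosome 5) had a peak in all 8 lists, against 3.6% of all protein-coding genes. Of the *Ugt1a* genes 6 had a peak in at least 1 list, as did 17 *Mup* and 2 *Cyp3a* genes. Peaks were also counted over each whole stretch, from 10 kb before its first gene to 10 kb after its last. The number varied between lists from 2 to 6 for *Mup*, 0 to 3 for *Ugt1a* and 2 to 5 for *Cyp3a*. For amylase it was 1 in each list. The amylase stretch ran from 113137656 to 113587750, but that of *Cyp3a* from 137882933 to 146124978 and that of *Mup* from 59946804 to 62160841. With such unlike lengths the numbers can include peaks away from the genes and are not comparable. These counts were not tested against one another. The autosomal genes whose covered share in the 8 lists was nearest to the mean of the *Amy2a* copies, by Euclidean distance over the 8 percentages, were *Slc25a37*, a mitochondrial iron carrier, at 15.2 percentage points, *Gm21154* at 25.3 and *Gon4l* at 37.1. The covered share of *Slc25a37* was between 52.7% and 69.1%. Since the mean mixes copies at 100%, at 0% and in between, this nearness is to the mean and not to a single copy.

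Identical promoter letters and listed peaks went together beyond the amylase genes. Of 191 autosomal protein-coding genes whose 300-base window was identical to that of another gene at a different position, *Amy2a2*, *Amy2a3* and *Amy2a4* among them, 136 or 71.2% had a peak by the same rule in all 8 lists. Of the other 16246 autosomal genes in the promoter table, 365 or 2.25% had one. *Amy2a5* and *Amy2a1*, whose windows are shifted or differ by a few letters, are counted among these others. The genes are not independent, since copies often sit side by side under 1 peak, and the part of sequence identity in the amylase block was not tested.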

How the data were processed

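The submitters' processing notes name bcl2fastq 2.17, Trimmomatic 0.33, HISAT2 2.2.1, MACS2 2.2.7 and mm10. The authors deposited 1 peak list per library, called without pooling. The files have no header, and by their layout the deposited score is 10 times the −log10 q-value, cut to a whole number. The fold column as deposited is a ratio of coverage to background from the caller, beside −log10 of p and q for each peak, from the authors. Caller settings, control and read placement are not given in the sources used here. Depth is unknown.

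Starts were counted from 1. A gene had a peak if 1 lay in it or within 10 kb (at least 1 bp). Background coverage b and coverage k were solved from fold = (k + 1) / (b + 1) and the Poisson chance of exceeding k, and the list background was the 10th percentile of b over peaks with −log10 p under 15. Promoter windows were aligned with end gaps free (match 1, gap opening -3, extension -1). Groups followed the labels and were compared by exact permutation tests over libraries, which may be technical replicates, so p-values measure the spread between these libraries. Named genes were the 7 members, genes inside the cluster, the nearest 2 protein-coding genes on either side, listed digestion genes and the 3 genes of nearest pattern. Members, lists and tests were chosen with earlier results of these data known. Coverage ratios, edge tests, identical promoters and the crossed pairing were added after seeing the data. Alternatives tried were scores at or above the list median, gene bodies only, merging within 500 bp, other windows, half-covered genes, a replicate block and leaving out each library. The overlap step was tested on simulated lists of 600 genes, where 120 of 120 genes set with a peak were found. Python 3.11.15, numpy 2.4.6, pandas 2.3.3, scipy 1.17.1, matplotlib 3.10.9 and biopython 1.88 were used.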

Additional observations from a re-analysis of the deposited data

How the results depend on the processing

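The number of amylase genes with a peak was 4 with each antibody under the median score, gene-only and 50 kb settings and without any 1 library, and 3 where at least 50% of the gene had to be covered, which drops *Amy2a5*. The share of the *Amy2a* copies covered ranged from 66.5% to 68.5% when 1 library was left out, and that of *Amy1* and *Amy2b* stayed at 0%. The Cre minus Vec difference of the H3K27ac length was -2.03 kb on gene bodies only, by construction the shift of the start within *Amy2a5*, and ranged from -0.35 to 1.54 kb without 1 library. The EBF2 length difference ranged from -1.07 to 6.77 kb, and the EBF2 coverage ratio difference from -0.19 to 2.13, and it was -0.31 with the background at the peak itself, which differs from the list background in Cre replicate 2. The H3K27ac minus EBF2 length ranged from -5.02 to -2.40 kb, with p from 0.0286 to 0.343 (exact permutation test). The H3K27ac start shift ranged from 1.54 to 2.52 kb and the end shift from 1.19 to 4.06 kb. The EBF2 start difference ranged from -5.03 to 1.405 kb and the EBF2 end difference from 0.12 to 1.96 kb. With the replicate block the EBF2 and H3K27ac length differences were 2.85 and 0.59 kb (exact sign-flip permutation, p = 1 and 0.5) and the antibody difference was -3.23 kb (exact permutation test, p = 0.25). These tests allow no p below 0.5 with 2 pairs and 0.125 with 4, so they say nothing about stability. Deviations of same-numbered libraries had a correlation of -0.39 over 35 EBF2 regions and -0.13 over 106 H3K27ac regions, and the numbers were taken as shared labels only. Crossing the numbers gave calls in 0 of 5 comparisons, which the smallest p of 0.5 fixed beforehand. Having 2 libraries a group and lists without read counts limit every comparison.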
